A study of Homo sapiens with 20 samples.

Results

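Replication-dependent histone genes code for the core histones H2A, H2B, H3 and H4 and for the linker histone H1, which together package newly made DNA. Most lie in clusters, lack introns and are transcribed mainly in S phase. Their mRNAs are the best known animal mRNAs without a poly(A) tail: the precursor is cut just after a short stem-loop, which the stem-loop binding protein SLBP holds, with help from the U7 small nuclear RNA. A minority of these genes also make polyadenylated transcripts. The members were all gene rows whose symbol starts with HIST1H, HIST2H, HIST3H or HIST4H and is not a pseudogene symbol ending in PS, with or without a number. The rule found 72 of 26485 rows in each of the 2 deposited tables: 6 H1, 17 H2A, 20 H2B, 14 H3 and 15 H4 genes, of which 55 lie on chromosome 6, 16 on chromosome 1 and 1 on chromosome 12. Among the H2B rows kept, HIST2H2BA and HIST2H2BC have noncoding RefSeq records (current symbols H2BP1 and H2BC20P).

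The data were nuclear RNA-seq libraries from HCT116, a human colon carcinoma line with wild-type p53. An electric pulse delivered either water or a bivalent stapled peptide (Peg6 in the sample titles, 10 µM, followed by 200 nM in the medium). The cells then spent 3 h in 0.1% DMSO, alone or together with Nutlin-3a at 10 µM, a small molecule that blocks the binding of MDM2 to p53. The design asked how p53-dependent transcription responded to the peptide with Nutlin-3a present. The 4 conditions (DMSO with water, DMSO with peptide, Nutlin-3a with water, Nutlin-3a with peptide) were run in experiment 1 with 2 libraries each and in experiment 2 with 3 each, 20 libraries in all. The labels do not say whether replicates came from separate cultures, so p-values here measure only the spread between these samples.

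Libraries of experiment 1 held 36717795 to 63896604 reads on the gene rows, and those of experiment 2 held 18787172 to 47407746. Rows of structural RNAs (ribosomal, 7SL, 7SK, small nuclear and the like) were far more abundant in experiment 1, at 29.6% to 49.8% of the library, than in experiment 2, at 1.98% to 7.11%. The highest share was in the library labelled Nutlin-3a with water, replicate 2, of experiment 1, which stands apart from the other 7 (29.6% to 39.6%). The 5 epithelial markers summed to 1525 to 2037 RPM (reads per 1000000 reads on gene rows) in experiment 1 and 1819 to 3691 RPM in experiment 2. Most of this was KRT8 and KRT18 (means 1124 and 456 RPM in experiment 1), while VIL1 averaged 0.204 and 0.182 RPM in experiments 1 and 2. The 4 leukocyte markers summed to at most 0.922 RPM in every library. The 4 fibroblast markers summed to 9.86 to 17.0 RPM in experiment 1 and 19.3 to 88.7 RPM in experiment 2, nearly all COL1A1. The p53 targets checked were above their DMSO level under Nutlin-3a with water in 5 of 5 genes in each experiment (median log2 change 1.28 in experiment 1 and 0.71 in experiment 2), none past the test.

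The stem-loop that ends these mRNAs is shown first, because it is the element that the known processing of these mRNAs reads. A 16-base stem-loop was found in 48 of the 103 GENCODE v29 transcripts of the members, in 33 of the 72 genes. Many of the other annotated transcripts stop at the end of the coding region, so a gene without a match here is not shown to lack the element. The windows are written as DNA, 5′ to 3′, on the transcript's strand, from GENCODE v29 (GRCh38), with the stem-loop in capitals and 5 bases on each side in lower case.
HIST2H3C: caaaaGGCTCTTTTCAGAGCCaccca
HIST2H2BE: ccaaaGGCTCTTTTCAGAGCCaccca
HIST3H2A: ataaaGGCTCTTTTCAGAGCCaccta
HIST1H2BD: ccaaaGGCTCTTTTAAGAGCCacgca
HIST1H2AG: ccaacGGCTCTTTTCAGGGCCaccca
HIST1H4J: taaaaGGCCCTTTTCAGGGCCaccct
HIST2H4A: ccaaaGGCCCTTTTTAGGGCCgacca
HIST1H3E: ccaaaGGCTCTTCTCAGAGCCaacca
The form in HIST2H3C, HIST2H2BE and HIST3H2A was the most frequent, with 17 genes of the H2A, H2B and H3 classes. The form in HIST1H2BD was found in 5 H2B and H3 genes and that in HIST1H2AG in 2 genes. The forms in HIST1H4J and HIST2H4A were found in H4 genes only, 5 and 3 of them. HIST1H3E had a form of its own. Some annotated transcripts run on past the element, by 1729 bases in HIST2H2BE, 390 in HIST3H2A and 1154 in HIST2H3C, and HIST1H2BC and HIST1H2BD each have a spliced annotated transcript without it.

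The members took very different shares of the reads in the 2 experiments. Their reads made up 0.547% to 0.808% of each library in experiment 1 and 0.00534% to 0.00826% in experiment 2. Summed over the 72 rows, this was 6344 ± 860 RPM (SD, 8 libraries) in experiment 1 and 64.6 ± 10.9 RPM (SD, 12 libraries) in experiment 2. The lowest library of experiment 1 held 5472 RPM and the highest of experiment 2 held 82.6 RPM, so the ranges did not overlap. The 2 tables were normalized separately, so levels are set side by side with no test across them. The experiment, its libraries' structural RNA share and the members' level cannot be told apart. In bulk libraries, fewer cells in S phase and less histone RNA per cell also cannot be told apart.

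**Figure D1:**
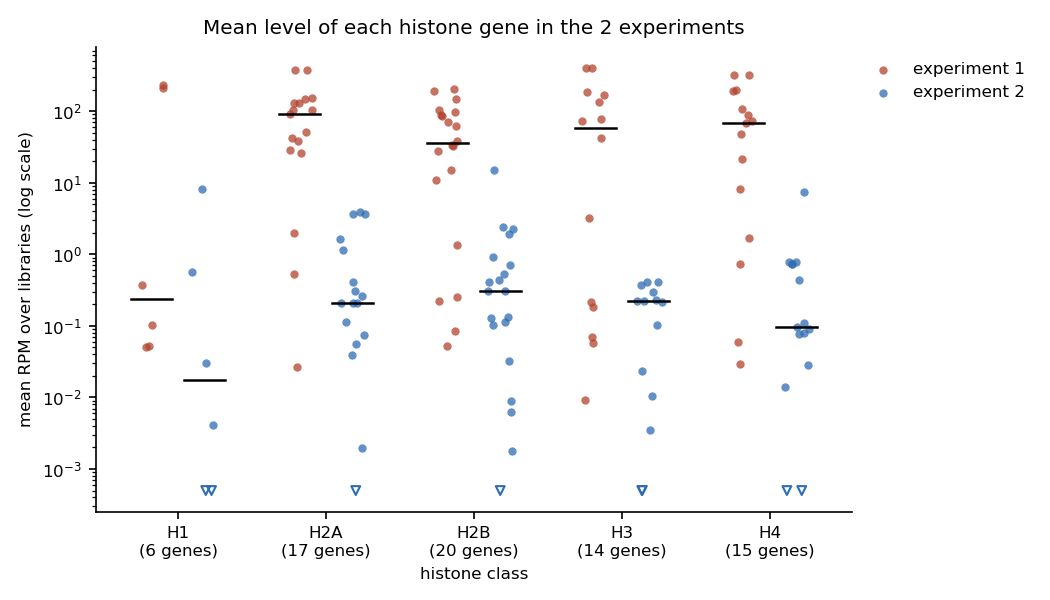
Mean RPM of each of the 72 histone genes (points) by histone class on a log axis, experiment 1 in red and experiment 2 in blue; black bars are class medians and open triangles mark genes with 0 reads in all 12 libraries of experiment 2. In experiment 1, 24 genes had a mean of at least 100 RPM, and in experiment 2 none did.

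Gene by gene, 55 of 72 members had every library of experiment 1 above every library of experiment 2, against 7.06% of all 26485 rows. In experiment 1, 24 members had a mean of at least 100 RPM, 25 lay from 10 to 100 RPM, 7 from 0.5 to 10 RPM and 16 below 0.5 RPM. In experiment 2, 1 member lay above 10 RPM, 18 from 0.5 to 10 RPM and 53 below 0.5 RPM. No member was at 0 in every library of experiment 1. Another 8 members were at 0 in all 12 libraries of experiment 2 (HIST1H1B, HIST1H1D, HIST1H2AA, HIST1H2BA, HIST1H3F, HIST1H3I, HIST1H4G and HIST1H4L), with 10 to 33 reads in all of experiment 1. For the 55 members with over 3 reads in experiment 2 and at least 0.5 RPM in experiment 1, the ratio of pooled RPM (experiment 1 over experiment 2) had a median of 239 and ran from 7.59 to 1094. The other 17 members have no ratio under these minimums, which include one on the level in experiment 1, and HIST1H3G among them had 4 reads in experiment 1 and 7 in experiment 2. By class, the median ratio was 673 for 9 H3 genes, 257 for 15 H2A genes, 239 for 13 H4 genes and 112 for 16 H2B genes.

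Linker histones H1 bind DNA between nucleosomes. Of the 6 H1 genes, 2 carried nearly all the H1 reads. HIST1H1C (chr6:26055740-26056428, minus strand, hg38) was at 201 and 184 RPM in DMSO with water, 207 and 220 in DMSO with peptide, 199 and 211 in Nutlin-3a with water and 231 and 237 in Nutlin-3a with peptide in experiment 1. HIST1H1E (chr6:26156331-26157050, plus strand) was at 200 and 190, 206 and 229, 213 and 310, and 217 and 261 RPM in the same order. Both had a similar level per length in experiment 1, at 306 and 317 RPM per kb. In experiment 2 they did not: HIST1H1C had a mean of 11.9 RPM per kb and HIST1H1E 0.777. HIST1H1C ranged from 5.10 to 14.4 RPM over the 12 libraries of experiment 2, and HIST1H1E from 0.215 to 1.33 RPM. Their ratios between the experiments were 28.0 and 441. HIST1H1C is one of the members known to make polyadenylated transcripts.

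The other 4 H1 genes were close to 0 in both experiments. HIST1H1B (H1.5) had 20 reads and HIST1H1D (H1.3) 19 reads in all 8 libraries of experiment 1, or 0.0530 ± 0.100 and 0.0499 ± 0.0370 RPM (SD, 8 libraries). HIST1H1A averaged 0.101 RPM and HIST1H1T, a testis form, 0.372 RPM. Low transcription of these 4 genes and reads lost through the authors' annotation or counting cannot be told apart in these files. Promoters are shown for 2 H1 genes with many reads and 2 with few. Each line gives the 130 bases before the RefSeq start site (GRCh38.p14), 5′ to 3′ on the gene's strand, with every match on either strand in capitals. Capitals mark the TATA motif TATAAA. They also mark the CCAAT box, the histone octamer motif ATTTGCAT and the H1 box AAACACA.
HIST1H1C: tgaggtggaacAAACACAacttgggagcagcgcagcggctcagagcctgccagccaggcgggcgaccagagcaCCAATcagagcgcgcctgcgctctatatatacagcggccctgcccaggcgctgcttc
HIST1H1E: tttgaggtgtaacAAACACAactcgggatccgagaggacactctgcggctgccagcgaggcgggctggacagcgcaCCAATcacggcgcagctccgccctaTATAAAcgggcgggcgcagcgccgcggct
HIST1H1B: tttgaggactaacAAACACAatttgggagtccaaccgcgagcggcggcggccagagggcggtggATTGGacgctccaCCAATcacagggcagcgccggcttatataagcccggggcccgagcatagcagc
HIST1H1D: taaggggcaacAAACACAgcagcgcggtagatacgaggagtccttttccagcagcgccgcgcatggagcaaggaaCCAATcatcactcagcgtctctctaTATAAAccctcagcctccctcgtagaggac
They lie at chr6:26056471-26056600 (HIST1H1C, minus strand), chr6:26156199-26156328 (HIST1H1E, plus strand), chr6:27867589-27867718 (HIST1H1B, minus strand) and chr6:26234988-26235117 (HIST1H1D, minus strand). The H1 box and CCAAT stood in all 4, HIST1H1B with a second CCAAT on the other strand. TATAAA as an exact string stood in HIST1H1E and HIST1H1D only. The windows of HIST1H1C and HIST1H1B hold the similar string tatata, which the search did not count.

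Promoters of 65 of the 72 members were matched through their RefSeq accession, and the motifs were counted in the 250 bases before each start, on both strands. AAACACA was in 6 of 6 H1 promoters, in none of the other 59 and in 4.82% of all 35116 promoters of the table. CCAAT was in all H1, H2A, H2B and H3 promoters matched (6, 16, 18 and 12) but in 3 of 13 H4 promoters, and in 32.0% of all. ATTTGCAT, the octamer that the factor OCT1 binds in H2B promoters, was in 14 of 18 H2B and 11 of 16 H2A promoters and in 1.63% of all. Many H2A and H2B genes are divergent neighbours, so 1 stretch of sequence can count for both. TATAAA was in 33 of 50 members with at least 0.5 RPM in experiment 1 and in 10 of 15 below it, against 10.7% of all promoters. The octamer was in 4 of 4 H2B genes below 0.5 RPM and in 10 of 14 above it. A match is a string in the window and shows no binding.

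H2A and H2B pair as a dimer on the nucleosome. The H2A rows took 28.1% of the members' reads in experiment 1 and 24.9% in experiment 2, and the H2B rows took 18.9% and 39.5%. In experiment 2 the H2B rows summed to a mean of 26.0 RPM, of which the long HIST1H2BK row alone held 15.2 RPM. With rows that share a position counted once, H2A took 26.8% and 20.8%, and H2B 22.8% and 42.8%. HIST2H2AA3 and HIST2H2AA4 share 1 row position in each table (chr1:149851061-149851506 in experiment 1, and the copy at chr1:149842218-149842698 in experiment 2). Their values are identical, so they are 1 measurement. Member counts, sums and median ratios nevertheless include both rows of each shared position, and 69 rows are distinct. This H2A pair stood at 326 and 320, 357 and 362, 331 and 547, and 334 and 385 RPM in experiment 1, in the order of conditions used above. In experiment 2 they ranged from 1.82 to 5.20 RPM. HIST3H2A (chr1:228457364-228457817), a single H2A gene outside the large clusters, was at 28.8 and 23.0, 28.6 and 28.5, 26.6 and 39.8, and 26.3 and 28.8 RPM in experiment 1 and from 2.36 to 7.06 RPM in experiment 2. Its ratio of 7.59 was the lowest of the 55. Per length HIST3H2A stood below HIST2H2AA3 in experiment 1 (63.4 against 831 RPM per kb) and beside it in experiment 2 (8.63 against 7.60).

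HIST1H2BK supplied the most H2B reads of experiment 2. It was at 171 and 159, 180 and 190, 162 and 268, and 178 and 194 RPM in experiment 1. In experiment 2 it was at 22.8, 9.92 and 11.2 RPM in DMSO with water, 25.5, 10.4 and 13.5 in DMSO with peptide, 22.9, 9.90 and 11.9 in Nutlin-3a with water and 22.6, 9.24 and 12.6 in Nutlin-3a with peptide. The ratio between experiments was 13.0. Its row is 8506 bases long (chr6:27138293-27146798), while the middle span of member rows is 434.5 bases, so its 22.1 RPM per kb in experiment 1 is an average over a long stretch that also covers the opposite-strand gene HIST1H4I. HIST2H2BA (8811 bases, noncoding) and HIST2H2BE (2181 bases) are the other rows over 2 kb, at 70.9 and 147 RPM in experiment 1 and 0.901 and 2.29 RPM in experiment 2. HIST2H2BF was at 162 and 178, 199 and 209, 179 and 276, and 182 and 216 RPM in experiment 1 and between 0.211 and 0.787 RPM in experiment 2. HIST1H2BD ranged from 80.0 to 130 RPM in experiment 1 and from 1.22 to 3.75 RPM in experiment 2. In these H2B genes the Nutlin-3a with water replicate 2 library was the highest of experiment 1.

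H3 and H4 form the tetramer at the nucleosome's core. H3 rows took 23.3% of the members' reads in experiment 1 and 3.98% in experiment 2, or 20.5% and 3.59% with shared rows once. HIST2H3A and HIST2H3C share 1 row (chr1:149852619-149853065) and stood at 331 and 340, 375 and 379, 351 and 590, and 372 and 449 RPM in experiment 1. In experiment 2 they ranged from 0.118 to 0.958 RPM, and their ratio of 1094 was the highest of the 55. H4 rows took 22.8% of the members' reads in experiment 1 and 18.4% in experiment 2, or 21.5% and 18.6% with shared rows once. HIST2H4A and HIST2H4B share 1 row in each table (chr1:149832657-149832996 in experiment 1, and the copy at chr1:149860764-149861131 in experiment 2) and stood at 289 and 266, 322 and 318, 313 and 353, and 294 and 370 RPM in experiment 1, and from 0.501 to 1.33 RPM in experiment 2. HIST1H4K averaged 197 ± 29.3 RPM (SD, 8 libraries) and 0.789 ± 0.281 RPM (SD, 12 libraries). HIST1H4J averaged 194 ± 28.5 and 0.771 ± 0.296 RPM. Every 50-base word of the HIST1H4K transcript in GENCODE also occurs in that of HIST1H4J (100%), so how reads were split between the pair is uncertain.

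HIST1H4C (chr6:26103948-26104259, plus strand) was the H4 gene with most reads in experiment 2. It stood at 105 and 90.5, 116 and 111, 109 and 83.1, and 124 and 123 RPM in experiment 1. In experiment 2 the libraries of replicates 1, 2 and 3 held 4.80, 10.6 and 6.23 RPM in DMSO with water, 5.78, 15.3 and 6.03 in DMSO with peptide, 3.28, 9.58 and 2.50 in Nutlin-3a with water and 5.56, 13.6 and 6.06 in Nutlin-3a with peptide. Its ratio was 15.4, against 239 for HIST1H4J. Per length, HIST1H4C was below HIST1H4J in experiment 1 (345 against 621 RPM per kb) and above it in experiment 2 (23.9 against 2.47).

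The members differed from other genes of histone biology in the ratio between the experiments. For the 8 members listed, from background knowledge, as making polyadenylated transcripts, the median ratio was 62.8. HIST1H2BK (13.0), HIST1H1C (28.0), HIST1H2BD (42.2), HIST1H2AC (61.9) and HIST2H2BE (63.7) were below 100, and HIST4H4 (123), HIST1H2BC (223) and HIST1H2BJ (302) above it. Replication-independent histone genes, most of which are known for polyadenylated mRNAs, had a median ratio of 0.470 over 12 genes (0.304 to 0.944). Genes of S phase and DNA replication had a median of 0.646 over 20, with 4.53 for the DNA polymerase subunit gene POLA1. Genes of histone transcription and 3′ processing had 0.697 over 20, and histone chaperones 0.691 over 16. Other RNAs made without a poly(A) tail had a median of 340 over 7 of the 8 listed: RN7SK, which restrains elongation, had 340, RN7SL1 of the signal recognition particle 339, RMRP 3445, RPPH1 of RNase P 951, the telomerase RNA TERC 107, RN7SL2 422 and RNY1 7.33. The vault RNA VTRNA1-1, below the minimum in experiment 1, went the other way, with means of 0.0766 and 0.181 RPM. The U7 RNA gene RNU7-1, left out of the processing list by the same minimum, was at 0.139 and 0.860 RPM. Over all 15643 rows with a ratio the median was 0.733. A ratio above 100 was found in 79 of them, of which 37 were members. What sets these ratios was not tested.

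**Figure D2:**
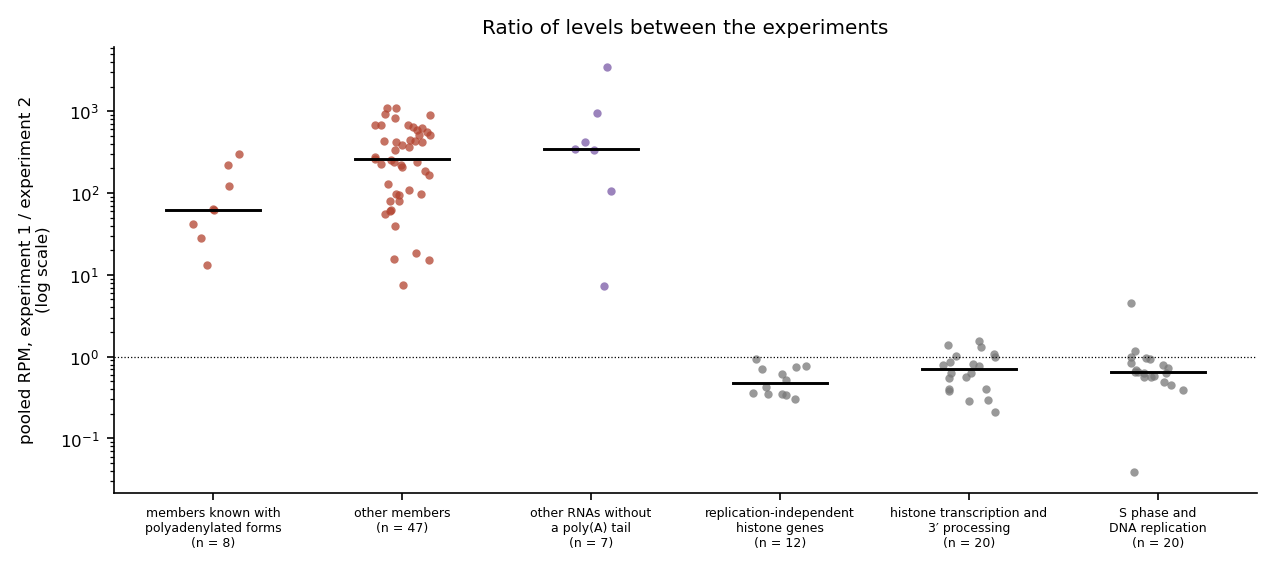
Ratio of pooled RPM in experiment 1 to experiment 2 on a log axis, 1 point per gene and a black bar at each list's median; the dotted line is a ratio of 1. The 8 members known with polyadenylated forms had a median of 62.8, the other RNAs without a poly(A) tail 340, and the replication-independent histone genes 0.470. Ratios under 30 were found both among these 8 members and among the other members.

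Within the chromosome 6 cluster of experiment 1, genes with few reads lay in runs beside genes with many. Low transcription of these runs and reads lost through annotation or counting cannot be told apart in these files. Of the 55 members on that chromosome, 21 had a mean below 5 RPM. The longest run held 10 neighbours over 57156 bases (chr6:26216201-26273356): HIST1H2BG, HIST1H2AE, HIST1H3E, HIST1H1D, HIST1H4F, HIST1H4G, HIST1H3F, HIST1H2BH, HIST1H3G and HIST1H2BI, with means from 0.00933 to 3.22 RPM. The 10 members just before it, from HIST1H2BC to HIST1H4E, had means from 10.9 to 228 RPM. A second run of 4 (HIST1H2AL, HIST1H1B, HIST1H3I and HIST1H4L; chr6:27865329-27873510) had means from 0.0530 to 0.522 RPM, beside HIST1H3J, HIST1H2AM and HIST1H2BO at 77.0 to 91.0 RPM. The testis genes HIST1H2AA and HIST1H2BA had 10 and 33 reads over the 8 libraries, HIST1H1T averaged 0.372 RPM, and the fourth testis gene, HIST3H3 on chromosome 1, 0.216 RPM.

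**Figure D3:**
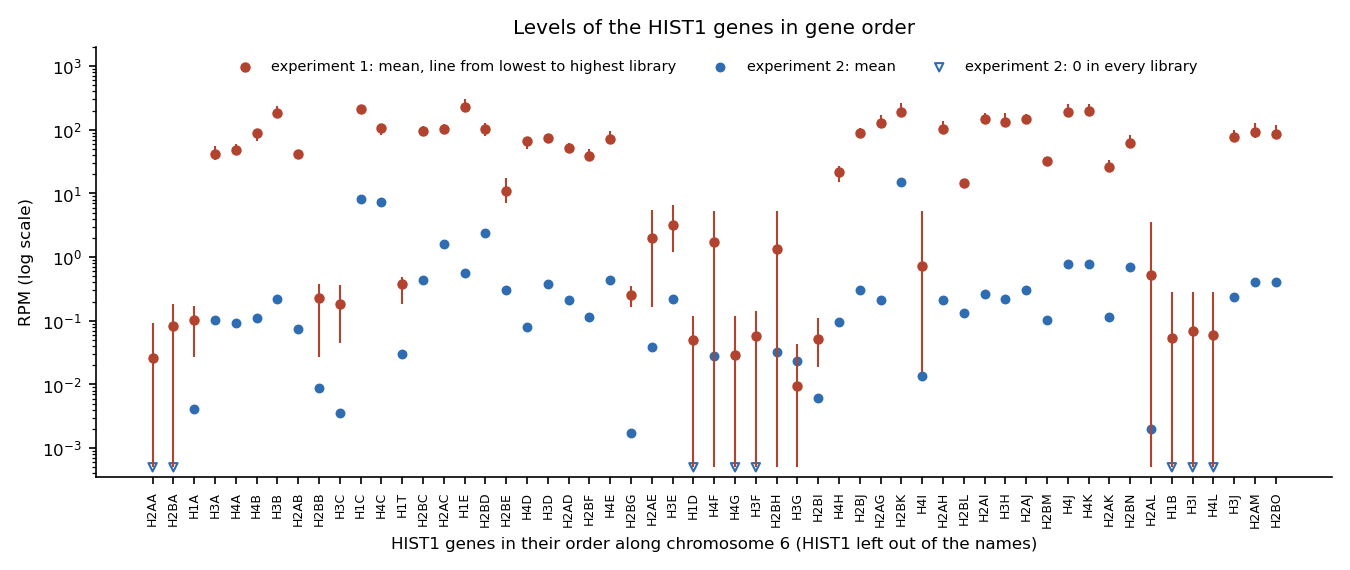
RPM of the HIST1 genes on a log axis in their order along chromosome 6: red points are experiment 1 means with a line from the lowest to the highest of 8 libraries (a line to the foot of the plot means a library at 0), blue points are experiment 2 means, open triangles are 0 in all 12 libraries. A run of 10 genes from H2BG to H2BI stands at means of 0.00933 to 3.22 RPM between neighbours above 10 RPM.

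The reads of HIST1H2AE, HIST1H3E, HIST1H4F and HIST1H2BH, plus-strand genes of the longer run, were uneven between libraries. HIST1H2BI, also on the plus strand, had at most 5 reads in any library. HIST1H1D, HIST1H4G and HIST1H3F, minus-strand genes lying among these, had at most 6 reads in any library. The minus-strand gene HIST1H2BG had 6 to 19 reads in each library of experiment 1. In experiment 1, HIST1H4F, in libraries 1 and 2 of each condition, was at 0 and 0.555 RPM in DMSO with water, 0 and 3.75 in DMSO with peptide, 0 and 4.07 in Nutlin-3a with water and 0.0157 and 5.27 in Nutlin-3a with peptide. HIST1H2AE was at 0.163 and 0.887, 0.217 and 3.98, 0.257 and 4.60, and 0.172 and 5.56 RPM. In all 4 conditions the replicate 2 library was the higher for both genes. HIST1H2BH followed in 3 conditions with 0.532, 3.77 and 5.29 RPM in replicate 2 but had 1.08 in Nutlin-3a with water. In experiment 2, HIST1H2AE, HIST1H4F and HIST1H2BH each had 8 reads in the DMSO with peptide replicate 1 library and at most 2 in any other. HIST1H4I had 5.37 RPM in the DMSO with peptide replicate 1 library of experiment 1 and at most 0.232 in the other 7, and HIST1H2AL had 3.59 RPM in Nutlin-3a with peptide replicate 2 and at most 0.204 elsewhere. The experiment 1 means of HIST1H2AE, HIST1H4F, HIST1H2BH, HIST1H4I and HIST1H2AL rest mainly on 4 libraries or fewer.

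For 5 of 19 members with a mean of at least 0.5 RPM, all 4 libraries of the same replicate number stood above the other 8 libraries of experiment 2, against 53.8% of all 15731 such rows, so the pattern was common among genes and not particular to histones. HIST1H1C was at 11.3 to 14.4 RPM in the 4 replicate 1 libraries, 5.10 to 6.07 RPM in replicate 2 and 5.29 to 6.50 RPM in replicate 3. HIST1H2BK was at 22.6 to 25.5, 9.24 to 10.4 and 11.2 to 13.5 RPM. HIST3H2A was at 4.78 to 7.06, 2.36 to 3.09 and 3.35 to 3.59 RPM. For these 3 genes every replicate 1 library was above the 8 others. HIST1H4C was highest in replicate 2 in the same sense, at 9.58 to 15.3 RPM against 2.50 to 6.23 RPM, and so was HIST1H1E, at 0.663 to 1.33 RPM against 0.215 to 0.544 RPM. Of the 19 members with a mean of at least 0.5 RPM, 8 had their highest mean in replicate 1, 5 in replicate 2 and 6 in replicate 3. The labels do not say what the number stands for.

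**Figure D4:**
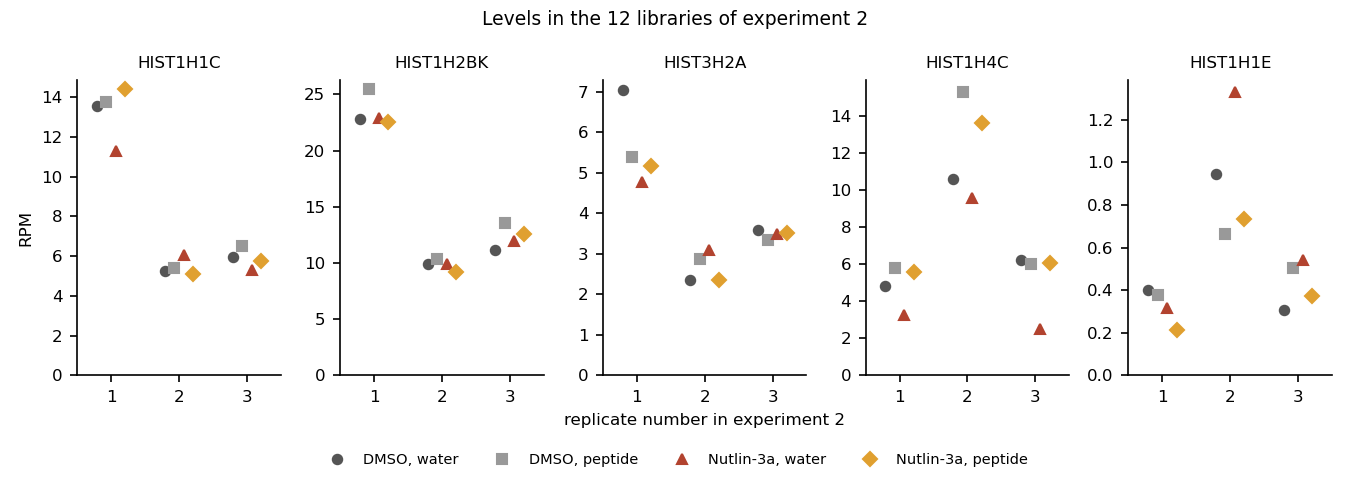
RPM of 5 histone genes in the 12 libraries of experiment 2 by replicate number, with 1 symbol per condition and axes from 0. HIST1H1C, HIST1H2BK and HIST3H2A were highest in all 4 replicate 1 libraries, and HIST1H4C and HIST1H1E in all 4 replicate 2 libraries.

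The first comparison asked whether Nutlin-3a changed the members in cells electroporated with water. In experiment 1, 56 members passed the filter of a mean of at least 0.5 RPM and 0 were called by limma at an adjusted p below 0.05, against 0% of 15644 rows; 2 had an unadjusted p below 0.05, and limma-voom on the recovered reads also called 0. The same test called none of the 5 p53 targets checked, so 0 calls do not show that the members were unchanged. All 56 values lay above 0, with a median log2 change of 0.55, where the median over all rows was -0.02. On deposited RPM without scaling the members' median was 0.32, with 51 of 56 above 0, and that over all rows -0.22, so scaling moved both by a similar amount. HIST1H1E had a log2 change of 0.63 ± 0.31 (SE), HIST1H2BK 0.57 ± 0.34, HIST2H3C 0.67 ± 0.36 and HIST1H1C 0.32 ± 0.19, all with an adjusted p of 0.619. With the replicate number as a block, 0 members were called by limma. More members, and more of all rows, then had an unadjusted p below 0.05. In deposited RPM, both Nutlin-3a libraries were above both DMSO libraries for 34 of the 56 members, against 6.16% of all rows. The size rested on 1 library: without Nutlin-3a with water replicate 2 the median was 0.09, and without replicate 1 it was 0.99, with 46 members and 10159 rows called. In that replicate 2 library the members summed to 8083 RPM and structural RNA took 49.8% of reads, against 5890 RPM and 32.2% in replicate 1. A fit without the structural RNA rows was also run and called 0 members. Whether these shares account for the change was not tested.

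In experiment 2 the same comparison tested 19 members and called 0, against 0% of 15731 rows. None had an unadjusted p below 0.05, and limma-voom called 0. With the replicate number as a block, 0 were called and 4 had an unadjusted p below 0.05 by limma: HIST1H4C, HIST1H4J, HIST1H4K and HIST1H2BD. The median log2 change was -0.10, with 8 of 19 values above 0. HIST1H1C had -0.15 ± 0.56 (SE) and HIST1H2BK -0.05 ± 0.51, with an adjusted p of 1.00 for both by limma. HIST1H4C was lower under Nutlin-3a in all 3 same-numbered pairs (4.80 to 3.28, 10.6 to 9.58 and 6.23 to 2.50 RPM), although the groups overlapped. Its log2 change was -0.67 ± 0.57 (SE), with an adjusted p of 1.00 by limma. With the block, the SE was 0.14 and the adjusted p 0.0618 by limma. HIST1H4J was also lower in all 3 pairs (0.601 to 0.364, 1.15 to 0.639 and 1.04 to 0.544 RPM), with a log2 change of -0.53 and, with the block, an SE of 0.16 and an adjusted p of 0.0912 by limma. HIST1H4K, which cannot be separated from it, had -0.50 and an adjusted p of 0.105 with the block. In experiment 1 the 2 DMSO libraries of HIST1H4C held 105 and 90.5 RPM and the 2 Nutlin-3a libraries 109 and 83.1 RPM, so the groups overlapped. That log2 change was 0.19 ± 0.12 after scaling and -0.04 on unscaled RPM.

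The second comparison asked the same in cells electroporated with the peptide. In experiment 1, 0 of 56 members were called, against 0.00639% of rows. Of the members, HIST1H4I alone had an unadjusted p below 0.05; its higher value came from the single DMSO with peptide library named above. The median log2 change was 0.18, with 55 of 56 values above 0. Without scaling it was 0.040, with 36 of 56 above 0 and a median over all rows of -0.14. Without Nutlin-3a with peptide replicate 2 it was -0.014, with 24 of 55 above 0. In deposited RPM, 5 members had both Nutlin-3a libraries above both DMSO libraries and 5 had both below, against 5.87% and 43.9% of all rows. In experiment 2, 0 of 19 were called, against 0% of rows, with a median of -0.16 and 2 of 19 values above 0. None had an unadjusted p below 0.05 without the replicate block. With the block, HIST1H2BK (log2 change -0.21, SE 0.094) had an unadjusted p of 0.0363 and an adjusted p of 0.281 by limma. Limma-voom called 0 members in each experiment.

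The third comparison set peptide against water with Nutlin-3a present. In experiment 1, 0 of 56 members were called, against 0.00639% of rows, and none had an unadjusted p below 0.05. The median log2 change was -0.16, with 15 of 56 values above 0. HIST1H1E had -0.20 ± 0.31 (SE), HIST1H2BK -0.25 ± 0.34 and HIST2H3C -0.24 ± 0.36. These signs also rested on the Nutlin-3a with water libraries: without replicate 2 the median was 0.26, and without replicate 1 it was -0.60, with 38 members and 9905 rows called. In experiment 2, 0 of 19 were called, against 0% of rows, with a median of -0.06 and, without the replicate block, none at an unadjusted p below 0.05. HIST1H4C was higher with peptide in all 3 same-numbered pairs (3.28 to 5.56, 9.58 to 13.6 and 2.50 to 6.06 RPM), with a log2 change of 0.78 ± 0.57 (SE) and an adjusted p of 1.00. With the block the SE was 0.14, the unadjusted p 3.1e-05 and the adjusted p 0.161 by limma. HIST1H2BN, at a log2 change of -0.40, had an unadjusted p of 0.0390 and an adjusted p of 0.795 by limma with the block. No member was called with the block, against 0.0127% of rows by limma with a trend and 0.0191% by limma-voom. This comparison shares its Nutlin-3a with water libraries with the first. Limma-voom called 0 members in each experiment.

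The fourth comparison set peptide against water in DMSO. In experiment 1, 0 of 56 members were called, against 0.00639% of rows, with 1, HIST1H4I, at an unadjusted p below 0.05. All 56 values lay above 0, with a median log2 change of 0.18. Both peptide libraries were above both water libraries in deposited RPM for 43 of 56 members, against 17.5% of all rows. The summed level was 5616 and 5472 RPM with water and 6161 and 6447 RPM with peptide. In experiment 2, 0 of 19 were called, against 0% of rows, with none at an unadjusted p below 0.05 and a median of 0.03. With the replicate block the lowest unadjusted p of a member was 0.0803 by limma, for HIST1H2BK. The sums were 79.3, 58.7 and 55.4 RPM with water and 82.6, 63.4 and 60.1 RPM with peptide, so the ranges overlapped, and the peptide library was the higher in all 3 same-numbered pairs. Limma-voom called 0 members in each experiment.

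**Figure D5:**
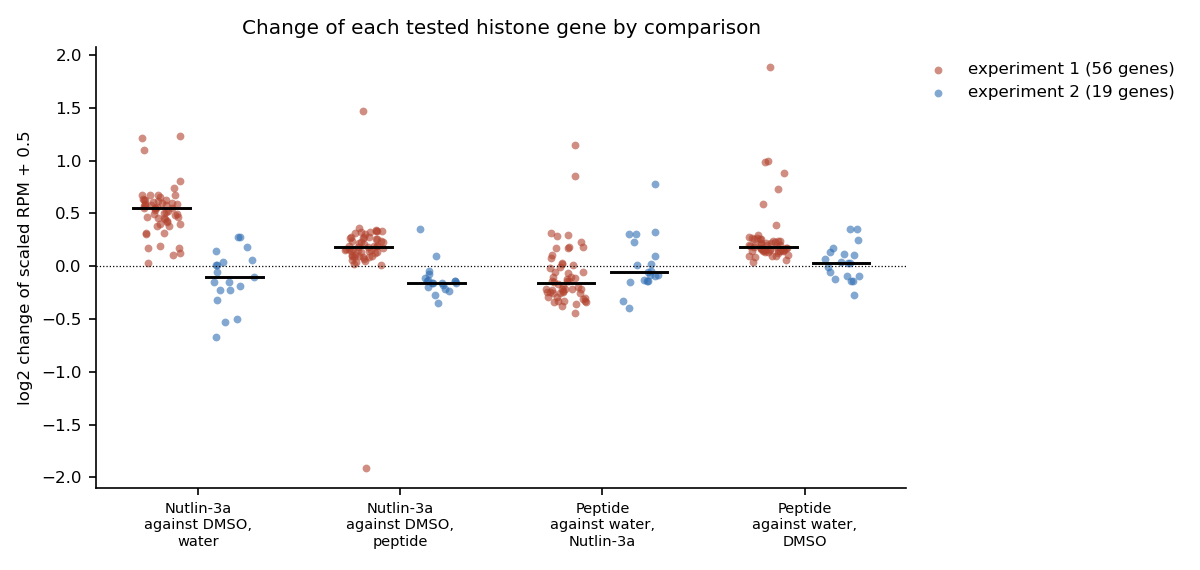
Log2 change of each tested histone gene (56 in experiment 1, red; 19 in experiment 2, blue) in the 4 comparisons, with a black bar at each median and a dotted line at 0. Under Nutlin-3a with water the medians were 0.55 and -0.10, and no histone gene was called in any comparison.

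Whether these changes differed between the experiments was tested in 1 model of all 20 libraries, over the 19 members that passed the filter in both. By limma 0 members were called in each of the 4 tests, against 0%, 0.00673%, 0% and 0.00673% of 14861 rows in the order above. At an unadjusted p below 0.05 there were 2 for Nutlin-3a in water and 0 in the others; no other tool was run on it. With the replicate block 0 members were called, against 0.0269%, 0.0202%, 0.343% and 0.00673% of rows, and 12, 1, 0 and 0 had an unadjusted p below 0.05. The median difference (experiment 1 minus experiment 2) for Nutlin-3a in water was 0.57, with 19 of 19 values above 0.

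Genes around histone supply were read from lists beside the members. None of the 12 replication-independent histone genes, 20 S phase genes, 16 chaperones or 21 genes of histone transcription and 3′ processing (20 tested in experiment 1) was called in any of the 8 comparisons. For Nutlin-3a against DMSO in water, the replication-independent genes had a median log2 change of 0.23 in experiment 1 (10 of 12 above 0) and -0.22 in experiment 2 (1 of 12 above 0). The S phase genes had 0.10 (12 of 20 above 0) and -0.15 (2 of 20 above 0). The other RNAs without a poly(A) tail had 0.52 in experiment 1, with 7 of 7 above 0, beside 0.55 for the members, and 0.18 over 6 genes in experiment 2. The 8 members with known polyadenylated transcripts had 0.57 in experiment 1 (8 of 8 above 0), and the 5 tested in experiment 2 had -0.19 (0 of 5 above 0).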

How the data were processed

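The deposited tables give, for each gene row and library, a value of another unit that the authors derived from reads: RPM divided by (stop − start/1000), RPM being reads per 1000000, the divisor being found from the values. Per the submitters' processing notes, HISAT2, bedtools and limma were used with build hg38; versions and the use of strand are not given in the sources used here. Multiplying by the divisor gave RPM, and 100% of values came out as whole reads within 0.001. Row starts count from 0, so 1 was added. Each experiment was fitted alone with limma 3.58.1 (R 4.3.3) with a trend: log2(RPM + 0.5) after scaling by trimmed means (30% of log ratios and 5% of abundances), rows with a mean of at least 0.5 RPM, 4 group means, Benjamini-Hochberg over all rows, call below 0.05. The pseudocount understates changes of low genes. The planned test on log2 RPM was kept. Scripts were tested on simulated data. In experiment 2 same-numbered libraries deviated together (correlations 0.878 to 0.941 over 18 pairs), so the numbers pair the libraries; the labels do not say by what. Ratios used reads pooled over an experiment and needed over 3 reads in experiment 2 and a mean of at least 0.5 RPM in experiment 1. Most genes were named by rule: per class the 2 members with the highest mean RPM in each experiment, members at 0 and rows over 2 kb. The rule also took shared rows and the members of the lists of polyadenylated and testis histones. Other members given with values were not fixed in advance. Among these are HIST1H4J, HIST1H2BN, HIST1H2AE, HIST1H4F, HIST1H2BH, HIST1H4I and HIST1H2AL, so their values are picked examples. Members and lists were chosen with earlier results of these data known.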

Additional observations from a re-analysis of the deposited data

How the results depend on the processing

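The settings tried were pseudocounts of 0.1 and 5, no low-value filter or one at 5 RPM, and no scaling or median-of-ratios scaling. Others were limma-voom, all 20 libraries in 1 fit, a replicate block and each library left out. Levels and fits were also taken without structural RNA rows and with shared rows once. In experiment 1 the 12 same-numbered pairs correlated at 0.293 to 0.598 over all rows tested and at 0.670 to 0.824 over the members. With 2 libraries a group, deviations within a group mirror each other, but this does not fix the sign between conditions. Whether the number pairs the libraries of experiment 1 is not settled by these values. The replicate block there left 0 members called for Nutlin-3a in water and moved those at an unadjusted p below 0.05 from 2 to 29, and all rows from 383 to 968. No member was called with the replicate block in any comparison, and 0 with 20 libraries in 1 fit. That fit had terms for condition and experiment. Its median member change under Nutlin-3a in water was 0.17 with and without the replicate block, against 0.55 and -0.10. In peptide it was 0.0081, against -0.16 in experiment 2. The fit filtered on the mean over all 20 libraries, so its members are a different set from those tested in each experiment alone. The medians therefore cover unlike sets, and what sets their differences was not tested. The members' sum in experiment 1 was 10021 RPM without structural rows and 5259 RPM with shared rows once. Members called ran from 0 to 46 for Nutlin-3a in water, 0 to 38 for peptide under Nutlin-3a, and 0 to 1 for each of the other 2 comparisons of experiment 1, when 1 library was left out. These fits assume that a lone library varies like the other groups. The median member change ran from 0.093 to 0.99 for Nutlin-3a in water and -0.60 to 0.26 for peptide under Nutlin-3a in experiment 1. In experiment 2 it ran from -0.29 to 0.085 for Nutlin-3a in water, -0.16 to 0.18 for peptide under Nutlin-3a and -0.074 to 0.21 for peptide in DMSO. Unscaled, HIST1H2BK under Nutlin-3a in water of experiment 2 was 0.031 and HIST1H4C in experiment 1 was -0.037. With 1 library left out, Nutlin-3a in water gave HIST1H2BK -0.0088 to 1.15 in experiment 1 and -0.42 to 0.37 in experiment 2, and HIST1H1C -0.49 to 0.31 in experiment 2. For peptide under Nutlin-3a in experiment 1, HIST1H1E ran from -0.70 to 0.30, HIST1H2BK from -0.84 to 0.34 and HIST2H3C from -0.85 to 0.36. Libraries of experiment 2 held 1113 to 2850 member reads, against 206222 to 395522 in experiment 1, so single members there rest on few reads. Floors from reads cover counting error only.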
